A study of Mus musculus with 6 samples.

Results

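The 33 genes described here drive cell division or hold it back. They were taken by symbol from the 55487 genes of the deposited expression table, and each symbol matched 1 gene. They comprise 9 genes of G1 control (D- and E-type cyclins, their kinases and E2f1), 2 cyclin-dependent kinase (CDK) inhibitors, 10 genes of S phase (DNA replication) and 12 genes of mitosis. RNA was measured in endothelial cells from the kidneys of 6 mice. The I-PpoI group was 3 mice that carried VE-cadherin Cre and the allele ROSA26-STOP-I-PpoI, in which Cre, driven by the promoter of an endothelial adhesion protein, removes a stop before the gene of I-PpoI, a homing endonuclease that cuts DNA. The locus is written ROSA27 and ROSA28 in the labels of I-PpoI mice 2 and 3. The Control group was 3 wild-type littermates, so Cre alone was not among the groups. All 6 mice ate a high-fat diet, in which fat gave 60% of the energy, beginning at an age of 8 weeks and lasting 4 weeks, and all carry batch 1 in the labels. Whole kidneys were digested with collagenase and cells were captured on magnetic beads by CD31 (Pecam1), which takes cells of all vessel types.

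Most endothelial cells of an adult kidney are out of the cell cycle. In G1, D-type cyclins with CDK4 or CDK6, and then E-type cyclins with CDK2, phosphorylate the retinoblastoma proteins, which frees E2F factors to switch on replication genes. The MCM complex is the replicative helicase, PCNA clamps the polymerases to DNA, and thymidylate synthase and ribonucleotide reductase supply nucleotides. Cyclins A and B with CDK1 then drive mitosis. The inhibitors p27 (Cdkn1b) and p57 (Cdkn1c) hold cells in G1.

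Promoter windows of 26 of the 33 genes were matched in RefSeq (GRCm38.p6; 250 bases before to 50 after the transcription start). Printed are those of the 4 genes that held an E2F or CHR motif and had no gene on the opposite strand within 5000 bases of an exon, because they show the letters by which replication and mitotic genes are usually told apart. An E2F motif was any of TTTCCCGC, TTTGGCGC, TTTCGCGC and TTTGCCGC, and the CHR (cell cycle genes homology region) motif was TTTGAA, each searched on both strands and marked by capitals.
Mcm5: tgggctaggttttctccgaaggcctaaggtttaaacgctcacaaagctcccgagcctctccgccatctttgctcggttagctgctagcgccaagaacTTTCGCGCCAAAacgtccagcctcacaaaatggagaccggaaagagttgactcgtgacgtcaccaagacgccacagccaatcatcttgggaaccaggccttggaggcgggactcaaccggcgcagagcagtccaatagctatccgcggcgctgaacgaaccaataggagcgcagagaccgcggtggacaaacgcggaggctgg
Mcm6: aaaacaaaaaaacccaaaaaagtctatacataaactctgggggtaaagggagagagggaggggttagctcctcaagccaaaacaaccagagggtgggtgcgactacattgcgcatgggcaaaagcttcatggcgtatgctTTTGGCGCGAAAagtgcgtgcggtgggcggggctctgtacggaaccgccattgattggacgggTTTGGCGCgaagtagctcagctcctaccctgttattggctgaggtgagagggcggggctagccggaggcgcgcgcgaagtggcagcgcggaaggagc
Cdk1: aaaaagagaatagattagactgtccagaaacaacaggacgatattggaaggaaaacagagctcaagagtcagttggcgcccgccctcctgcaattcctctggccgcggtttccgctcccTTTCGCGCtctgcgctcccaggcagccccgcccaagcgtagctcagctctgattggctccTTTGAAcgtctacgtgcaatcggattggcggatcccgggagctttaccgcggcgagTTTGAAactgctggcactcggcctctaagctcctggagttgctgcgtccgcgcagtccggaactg
Ccnb2: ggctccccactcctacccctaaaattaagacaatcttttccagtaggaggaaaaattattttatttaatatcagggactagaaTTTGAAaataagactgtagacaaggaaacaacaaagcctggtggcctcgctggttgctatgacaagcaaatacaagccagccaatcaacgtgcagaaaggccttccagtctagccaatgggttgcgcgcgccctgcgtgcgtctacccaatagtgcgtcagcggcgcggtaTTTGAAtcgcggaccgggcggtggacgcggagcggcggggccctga
The windows lie at chr8:75109259-75109558 (plus strand), chr1:128359656-128359955 (minus strand), chr10:69352863-69353162 (minus strand) and chr9:70421505-70421804 (minus strand), and each is written 5′ to 3′ on its gene's strand.

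The capitals in Mcm5 and Mcm6, helicase subunits, are E2F motifs, those in Ccnb2, cyclin B2, are CHR motifs, and Cdk1, the mitotic kinase, holds both. In Mcm6 motifs start at bases -110 and -106, where they overlap on opposite strands, and at -47. In Mcm5 a pair overlaps from -153 and -149. The CHR letters start at bases -167 and 5 in Ccnb2 and at -71 and -15 in Cdk1. Among S phase genes 4 of 10 windows (from 9 genes) held an E2F motif, those of Mcm3, Mcm5, Mcm6 and Mcm7, beside 2.265% of all 32851 windows. Among mitotic genes 7 of 10 windows held the CHR letters, beside 17.89% of all windows. The CCAAT box was in 9 of 10 mitotic windows, in 9 of 10 S phase windows and in 37.41% of all windows. A match describes letters in a window and is no measured binding site.

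The libraries were unlike in depth and strand, which touches the values of these genes. Whole fragments recovered from the deposited FPKM (fragments scaled to exon length and to the library's total) numbered 1590957, 834149 and 13324302 in I-PpoI mice 1, 2 and 3, against 14081222 to 16954480 in Control mice. The 33 genes held 2695, 785 and 10321 of these fragments in I-PpoI mice 1, 2 and 3 and 21560 to 24139 in Control. Minus-strand genes held 68.2%, 70.6% and 0.0821% of mitochondrial fragments in I-PpoI mice 1, 2 and 3 and at most 0.0664% in Control. The 15 endothelial markers summed to 951 to 2307 FPKM in I-PpoI and 3091 to 3412 FPKM in Control, and all 15 were above 0 in every Control library. The 11 lymphocyte markers summed to 8.76 to 17.7 FPKM in I-PpoI and 37.0 to 61.3 FPKM in Control, and the 12 proximal tubule markers to 286 to 889 FPKM in I-PpoI and 606 to 724 FPKM in Control. The 9 macrophage markers summed to 89.1 to 255 FPKM in I-PpoI and 25.3 to 215 FPKM in Control, and the 9 fibroblast and mural markers to 378 to 433 FPKM in I-PpoI and 674 to 938 FPKM in Control. Fragments of the X-inactivation RNA Xist numbered 0, 70 and 4739 in I-PpoI mice 1, 2 and 3 and 4, 0 and 0 in Control mice 1, 2 and 3, and those of the Y-linked Ddx3y 20, 0 and 0 in I-PpoI and 1488, 959 and 1672 in Control. The marker sums are FPKM as deposited, without scaling, and those of I-PpoI mice 1 and 2 come from the libraries that differ in strand. The part of these differences in the results was not tested, and in bulk RNA fewer cells of a type and less RNA per cell cannot be told apart.

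In Control endothelium the D-type cyclins, Cdk4, Pcna and both CDK inhibitors stood highest, and mitotic genes had the lowest median of the classes. From the top, Cdkn1c averaged 78.4 ± 58.2, Ccnd1 64.1 ± 16.3, Pcna 28.7 ± 5.53, Cdk4 25.5 ± 5.53, Ccnd2 23.5 ± 7.73, Ccnd3 23.0 ± 5.55 and Cdkn1b 17.8 ± 2.57 FPKM (SD, n = 3). The 6 MCM genes ran from 12.1 ± 2.32 FPKM in Mcm3 to 2.49 ± 0.286 FPKM in Mcm2. Among mitotic genes, Cdc20 was highest at 4.49 ± 1.06 FPKM and Ccnb1 lowest at 0.315 ± 0.137 FPKM. Ccne1, cyclin E1, was the lowest of all 33 at 0.152 ± 0.0382 FPKM. In this order 26 of 32 neighbouring pairs overlapped in their Control values, and the 6 steps without overlap lay below Ccnd1, Cdkn1b, Mcm3, Mcm4, Mcm6 and Rrm1. The median of the 12 mitotic genes was 0.205, 0.269 and 0.454 FPKM in I-PpoI mice 1, 2 and 3, against 0.551, 1.21 and 0.801 FPKM in Control mice 1, 2 and 3. The median of the 10 S phase genes was 2.12, 0.906 and 2.37 FPKM in I-PpoI mice, against 4.27, 4.51 and 4.27 FPKM in Control mice.

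**Figure D1:**
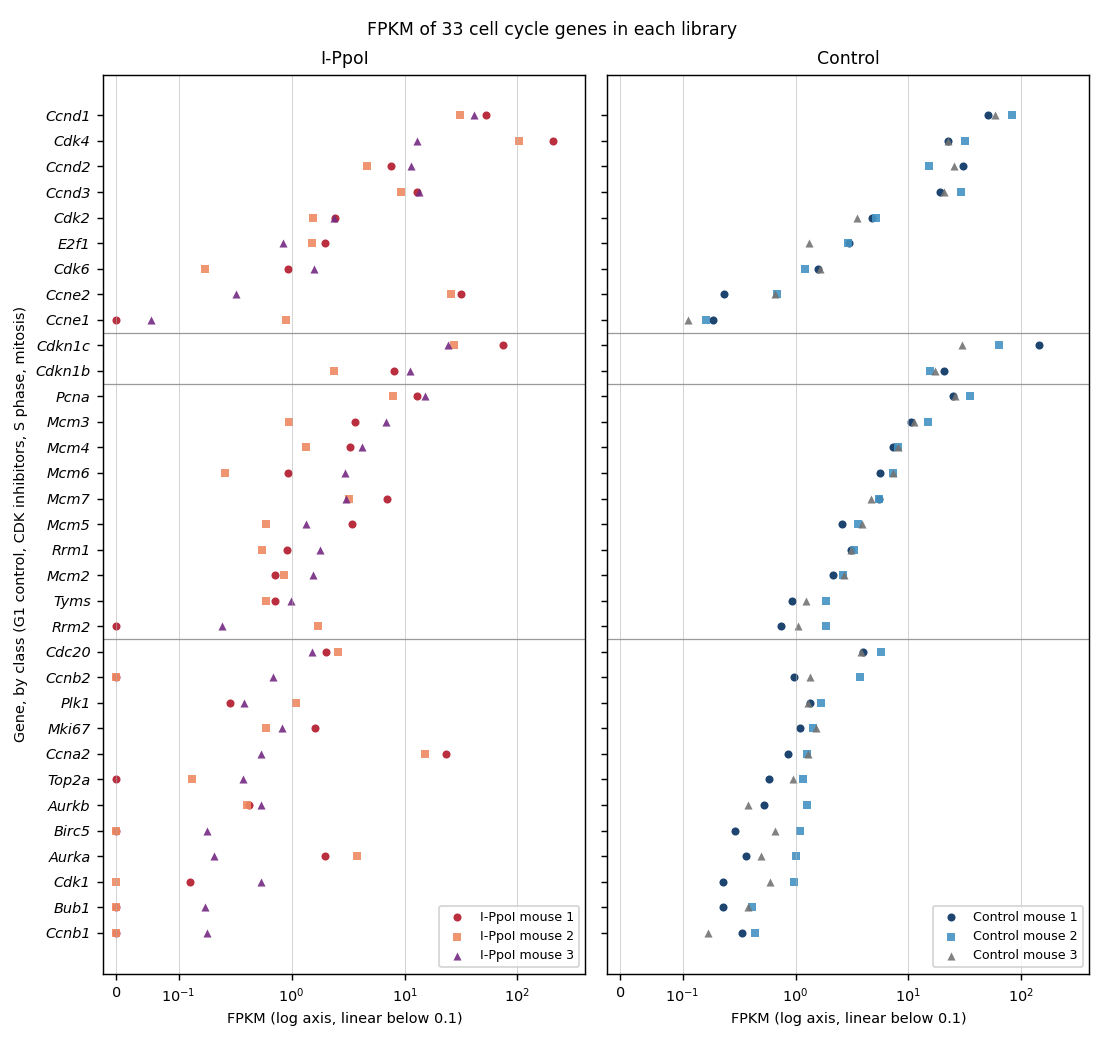
FPKM of the 33 genes (log axis, linear below 0.1) in the 3 I-PpoI libraries (left) and the 3 Control libraries (right), by class and, within a class, by Control mean; each point is 1 library. The Control points descend from Ccnd1 and Cdkn1c to Ccnb1 and Ccne1, while Cdk4, Ccne2 and Ccna2 lie far to the right in I-PpoI mice 1 and 2.

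No gene passed the test between groups. In limma on log2(FPKM + 1), among the 14962 genes that averaged 1 FPKM or more over the 6 libraries, 0 (0%) had a Benjamini-Hochberg adjusted p under 0.05, and 0 of the 25 cell cycle genes tested did, with adjusted p between 0.132 and 0.572. At an unadjusted p under 0.05, 12 of the 25 were lower and 0 higher in I-PpoI, beside 32.2% of all genes lower and 4.23% higher. Their median log2 fold change was -0.79, with 21 below 0 and 4 above, against a median of -0.65 over all genes tested, 71.6% of which were below 0. After median-of-ratios scaling, which moved the median of all genes to 0.02, the median of the 25 was -0.19, with 15 below 0 and 10 above, beside 49.2% of all genes below 0. At an unadjusted p under 0.05, 1 gene (Mcm6) was lower in the scaled fit and 0 were higher, beside 2.87% of all genes lower and 5.44% higher. Ccne2 and Aurka passed the filter through I-PpoI libraries only, and Top2a, Ccnb1, Ccne1, Cdk1, Bub1, Aurkb, Birc5 and Rrm2 were not tested.

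Without overlap between groups as deposited, 13 of the 25 lay lower in I-PpoI and 0 higher, beside 45.1% and 2.24% of all genes tested. limma-voom on recovered fragments called 0 of the 25, with 0 at an unadjusted p under 0.05, beside 3.53% of all genes.

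The D-type cyclins, which link growth signals to CDK4 and CDK6, had fragments counted in every library. In I-PpoI mice 1 and 2 these cannot be told apart from fragments of their opposite-strand genes, as given below. This limit also holds for the shares of the summed D cyclins in these mice. Ccnd1 (chromosome 7, 144929931 to 144939925, GRCm38) had 52.4, 30.9 and 41.3 FPKM in I-PpoI mice 1, 2 and 3, against 51.0, 82.4 and 58.9 FPKM in Control mice 1, 2 and 3. The groups overlapped through I-PpoI mouse 1, and the log2 fold change was -0.62 (SE 0.36, limma adjusted p = 0.201) as deposited and 0.22 (SE 0.30, adjusted p = 0.674) scaled, so its sign turned. Ccnd2 had 7.55, 4.69 and 11.5 FPKM in I-PpoI, against 30.4, 15.1 and 25.1 FPKM in Control. All 3 I-PpoI values lay below all Control values as deposited and overlapped them when scaled, with log2 fold changes of -1.48 (SE 0.44, adjusted p = 0.132) and -0.70 (SE 0.36, adjusted p = 0.333). Ccnd3 had 13.0, 9.38 and 13.3 FPKM in I-PpoI, against 19.2, 29.4 and 20.5 FPKM in Control. It too did not overlap as deposited, and its log2 fold change was -0.89 (SE 0.33, adjusted p = 0.133) as deposited and -0.09 scaled. Of the summed D cyclins, Ccnd1 made up 71.8, 68.7 and 62.5% in I-PpoI mice and 50.7, 64.9 and 56.4% in Control mice, and Ccnd2 10.3, 10.4 and 17.4% in I-PpoI and 30.2, 11.9 and 24.0% in Control.

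Among the partners of these cyclins, Cdk4 (chromosome 10, 127063534 to 127067920) had 205, 103 and 13.0 FPKM in I-PpoI mice 1, 2 and 3, against 22.2, 31.9 and 22.5 FPKM in Control mice. Mice 1 and 2 stood above every Control library and mouse 3 below, with a log2 fold change of 1.35 (SE 0.97, adjusted p = 0.283). Cdk6, the other D cyclin kinase, had 0.936, 0.171 and 1.59 FPKM in I-PpoI and 1.58, 1.21 and 1.64 FPKM in Control. Cdk2, the kinase of E cyclins, had 2.41, 1.54 and 2.38 FPKM in I-PpoI, all below the 4.74, 5.20 and 3.52 FPKM in Control. Its groups overlapped when scaled. Cdk2 shares 34 exon bases with Pmel on the opposite strand. Of the fragments of this pair, Cdk2 held 13.7, 20.5 and 97.5% in I-PpoI mice 1, 2 and 3. In Control mice it held 97.7, 98.7 and 99.5%, so the limit given for the D cyclins holds for Cdk2 too. E2f1, a transcription factor of replication genes, had 1.98, 1.51 and 0.833 FPKM in I-PpoI and 2.94, 2.91 and 1.31 FPKM in Control, which overlap. Ccne2, cyclin E2, had 31.6, 26.0 and 0.322 FPKM in I-PpoI mice, against 0.230, 0.691 and 0.658 FPKM in Control mice. As with Cdk4, only mice 1 and 2 stood high, and the log2 fold change was 2.80 (SE 1.22, adjusted p = 0.136). Ccne2 entered the test only through its I-PpoI values, so this p lends no support to a difference. Ccne1 had 0, 0.897 and 0.0564 FPKM in I-PpoI and 0.186, 0.160 and 0.111 FPKM in Control.

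The genes high in I-PpoI mice 1 and 2 lie across from another gene. Ccna2, Ccne2 and Cdk4 were over 3 times the highest Control value in both libraries, as were 17.3% of all genes tested. Of the 33 genes, 12 share exon bases with a gene on the opposite strand, and 20 have such a gene within 5000 bases. Of the fragments of Cdk4 and its opposite-strand neighbour Tspan31 together (641 shared exon bases), Cdk4 held 93.9% (95% Clopper-Pearson interval 92.3 to 95.2), 93.7% (90.3 to 96.1) and 46.3% (43.5 to 49.2) in I-PpoI mice 1, 2 and 3, against 45.7, 49.8 and 48.4% in Control mice. Ccne2 held 87.2, 89.4 and 6.07% of its pair with Ints8, an Integrator subunit, in I-PpoI mice, against 1.89, 7.98 and 6.91% in Control mice. In the pair of Ccna2 with Exosc9, an RNA exosome subunit, Ccna2 held 74.9, 78.8 and 13.7% in I-PpoI, against 14.7, 14.5 and 24.4% in Control.

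The opposite held for the D cyclins. Ccnd1 held 11.8, 10.2 and 90.3% of its pair with LTO1 (1100 shared exon bases) in I-PpoI mice 1, 2 and 3, against 87.5, 90.3 and 89.6% in Control mice. LTO1 itself stood at 261, 182 and 2.95 FPKM in I-PpoI and 4.86, 5.89 and 4.56 FPKM in Control. Ccnd3 held 16.6, 17.6 and 87.8% of its pair with Bysl in I-PpoI, against 86.6, 88.5 and 87.9% in Control, and Ccnd2 15.8, 22.8 and 99.5% of its pair with the antisense gene Gm43126 in I-PpoI, against 99.5, 99.6 and 99.4% in Control. Over the 12 genes, each with the neighbour of largest overlap, I-PpoI mice 1 and 2 both lay below all Control shares in 7 pairs and both above in 4, and I-PpoI mouse 3 lay within 10 percentage points of the Control range in 12 of 12. The counting's use of strand is not given in the sources used here, so reads of these genes and of their partners cannot be told apart in I-PpoI mice 1 and 2. Intervals cover counting error only.

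**Figure D2:**
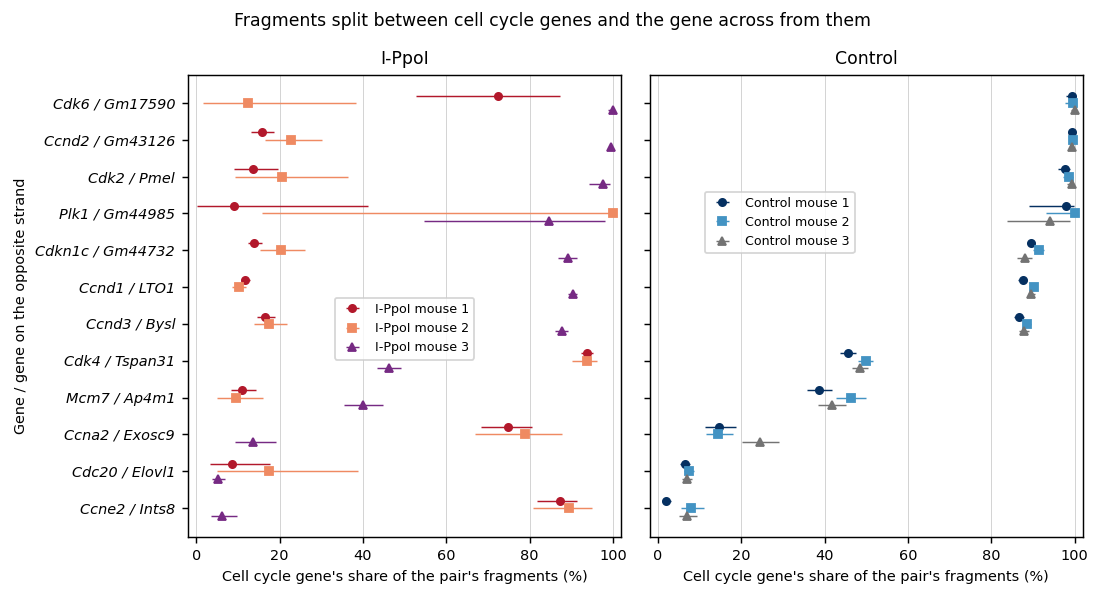
Share (%) of the fragments of a pair of opposite-strand genes that the cell cycle gene holds, for 12 pairs, in I-PpoI libraries (left) and Control libraries (right); points are libraries and bars 95% Clopper-Pearson intervals. I-PpoI mouse 3 sits with the Control libraries in all 12 pairs, while I-PpoI mice 1 and 2 sit low for the D cyclins and high for Cdk4, Ccna2 and Ccne2.

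Of the 10 replication genes 9 were tested. Of these 9, 6 lay lower in I-PpoI without overlap as deposited (Pcna, Mcm2, Mcm3, Mcm4, Mcm6 and Rrm1), beside 45.1% of all genes tested. Pcna (chromosome 2, 132249162 to 132253314) had 13.0, 7.96 and 15.1 FPKM in I-PpoI mice 1, 2 and 3, against 24.96, 35.0 and 26.0 FPKM in Control mice. The groups did not overlap as deposited, with a log2 fold change of -1.21 (SE 0.36, adjusted p = 0.132), and overlapped scaled, with -0.41 (SE 0.28, adjusted p = 0.426). Mcm6 had 0.935, 0.256 and 2.96 FPKM in I-PpoI, against 5.54, 7.22 and 7.25 FPKM in Control. It was 1 of 2 genes, with Mcm4, whose groups did not overlap on either scale, beside 9.75% of all genes lower without overlap when scaled. In I-PpoI mice 1 and 2 Mcm6 rested on 7 and 1 fragments and Mcm4 on 19 and 4. The value of Mcm6 in I-PpoI mouse 2 lay below the 0.771 FPKM that 3 fragments give there. Of the 25 tested, 0 lay higher without overlap when scaled, beside 7.65% of all genes. The log2 fold change of Mcm6 was -1.84 (SE 0.48, adjusted p = 0.132) as deposited and -1.31 (SE 0.48, adjusted p = 0.318) scaled. Scaled without I-PpoI mice 1 and 2, it was -0.36.

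Mcm4 had 3.30, 1.33 and 4.18 FPKM in I-PpoI mice, against 7.31, 8.08 and 8.04 FPKM in Control mice, with log2 fold changes of -1.24 as deposited and -0.57 scaled. Mcm3 had 3.66, 0.954 and 6.92 FPKM in I-PpoI, against 10.4, 14.8 and 11.2 FPKM in Control. Mcm2 had 0.717, 0.858 and 1.53 FPKM in I-PpoI, against 2.16, 2.61 and 2.70 FPKM in Control. These helicase subunits did not overlap between groups as deposited, whereas Mcm5 and Mcm7 did. Mcm7, which shares 321 exon bases with Ap4m1, had 7.04, 3.24 and 3.02 FPKM in I-PpoI and 5.45, 5.43 and 4.69 FPKM in Control. Summed over the 6 MCM genes the level was 19.1, 7.23 and 19.9 FPKM in I-PpoI and 33.5, 41.7 and 37.7 FPKM in Control. Mcm3 was highest and Mcm2 lowest of the 6 in all Control libraries, and Mcm3 was highest and Mcm5 lowest in I-PpoI mouse 3. Rrm1, the large subunit of ribonucleotide reductase, had 0.906, 0.542 and 1.79 FPKM in I-PpoI, against 3.08, 3.27 and 3.09 FPKM in Control. Tyms, thymidylate synthase, had 0.717, 0.588 and 0.986 FPKM in I-PpoI and 0.935, 1.87 and 1.24 FPKM in Control, which overlap. Mcm5 had 3.44, 0.598 and 1.33 FPKM in I-PpoI and 2.60, 3.59 and 3.84 FPKM in Control. Rrm2, the small subunit of ribonucleotide reductase, had 0, 1.72 and 0.244 FPKM in I-PpoI and 0.737, 1.85 and 1.04 FPKM in Control, which overlap.

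Mitotic genes were near the limit of counting in I-PpoI mice 1 and 2. Ccnb2 had 0, 0 and 0.686 FPKM in I-PpoI mice 1, 2 and 3, against 0.970, 3.71 and 1.35 FPKM in Control mice. At 0 fragments, I-PpoI mice 1 and 2 allow up to 1.23 and 2.35 FPKM (3 fragments), and the limit of mouse 2 lies above 2 of the 3 Control values. Ccnb1, Bub1, a spindle checkpoint kinase, and Birc5, which encodes survivin, were also at 0 in both libraries. In I-PpoI mouse 3 they stood at 0.178, 0.172 and 0.176 FPKM, against Control ranges of 0.168 to 0.438 FPKM for Ccnb1, 0.227 to 0.408 FPKM for Bub1 and 0.291 to 1.09 FPKM for Birc5. In all, 7, 5 and 0 of the 33 genes were at 0 in I-PpoI mice 1, 2 and 3 and 0 in each Control library, and 15, 24 and 4 genes had fewer than 10 fragments in I-PpoI mice, against 1 in each Control library. Mki67, the gene of the proliferation antigen Ki-67, had 1.61, 0.593 and 0.828 FPKM in I-PpoI and 1.10, 1.43 and 1.52 FPKM in Control. The groups overlapped, with log2 fold changes of -0.25 (SE 0.33, adjusted p = 0.527) as deposited and 0.18 (SE 0.28, adjusted p = 0.715) scaled. Cdc20, an activator of the anaphase-promoting complex, had 2.00, 2.56 and 1.53 FPKM in I-PpoI, all below the 3.98, 5.71 and 3.79 FPKM in Control, and overlapped when scaled. Ccna2 had 23.2, 15.2 and 0.533 FPKM in I-PpoI, against 0.864, 1.27 and 1.30 FPKM in Control, with the pair shares given above. Aurka, a spindle kinase, had 1.97, 3.77 and 0.208 FPKM in I-PpoI and 0.367, 1.01 and 0.490 FPKM in Control, and has a gene on the opposite strand within 5000 bases but shares no exon base with it.

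The remaining mitotic genes overlapped between groups when scaled. Top2a, the topoisomerase that untangles sister chromatids, had 0, 0.132 and 0.375 FPKM in I-PpoI mice, against 0.577, 1.17 and 0.943 FPKM in Control mice. Plk1, a mitotic kinase, had 0.284, 1.09 and 0.375 FPKM in I-PpoI, against 1.35, 1.68 and 1.29 FPKM in Control. Both were separate between the groups as deposited. Cdk1 had 0.126, 0 and 0.532 FPKM in I-PpoI and 0.226, 0.965 and 0.598 FPKM in Control. Aurkb, the kinase of the chromosomal passenger complex, had 0.423, 0.405 and 0.535 FPKM in I-PpoI and 0.525, 1.25 and 0.381 FPKM in Control, and these overlapped on both scales, as did Cdk1.

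Of the 2 CDK inhibitors, Cdkn1b was separate between the groups as deposited and Cdkn1c was not. Cdkn1b, p27, had 8.08, 2.36 and 11.2 FPKM in I-PpoI mice 1, 2 and 3, all below the 20.6, 15.6 and 17.1 FPKM in Control mice, with log2 fold changes of -1.38 (SE 0.53, adjusted p = 0.134) as deposited and -0.63 (SE 0.44, adjusted p = 0.435) scaled. Cdkn1c, p57, had 74.6, 27.5 and 24.0 FPKM in I-PpoI and 143, 62.8 and 29.6 FPKM in Control. Its groups overlapped, and the log2 fold change was -0.79 (SE 0.70, adjusted p = 0.367) as deposited and 0.04 scaled. Cdkn1c held 14.0, 20.3 and 89.2% of its pair with the antisense gene Gm44732 (625 shared exon bases) in I-PpoI mice 1, 2 and 3, against 89.6, 91.3 and 88.05% in Control mice. p57 is also known from podocytes. The 7 markers of distal nephron and podocyte summed to 134, 139 and 166 FPKM in I-PpoI, against 249.9, 265 and 256 FPKM in Control. This sum, like Umod among its genes, was lowest in mouse 1 of both groups, where Cdkn1c was highest. The podocyte gene Nphs1, and Slc12a3, went the other way and were highest in mouse 1 of both groups. Nphs1 had 22.0, 6.49 and 8.21 FPKM in I-PpoI mice, against 56.6, 9.25 and 8.81 FPKM in Control mice. The part of these markers in the level of Cdkn1c was not tested.

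I-PpoI mouse 3 was the I-PpoI library nearest to the Controls in depth and in strand, although mitochondrial genes held 48.2% of its fragments, against 8.83 to 18.3% in Control. It had 4739 Xist and 0 Ddx3y fragments, against 0 to 4 and 959 to 1672 in Control, so group and sex cannot be told apart here. Its proximal tubule marker Lrp2 was at 66.5 FPKM, against 2.33 to 3.65 FPKM in Control. As deposited I-PpoI mouse 3 lay below all Control values in 27 of the 33 genes and within their range in 6, and below them in 22 of the 25 tested genes, beside 70.7% of all genes. It lay above all Control values in 0 of them, beside 6.17% of all genes. Scaled and set against the Controls without I-PpoI mice 1 and 2, with this lone library assumed to vary like the Controls, 0 of 22 cell cycle genes tested were called, beside 0.376% of 13025 genes. Their log2 fold changes ran from -0.68 in Cdkn1c to 0.53 in Cdk6, with a median of -0.14 and 16 below 0, beside 51.1% of all genes below 0. Mcm6 was at 3.59 scaled FPKM in this library, against 3.85, 5.46 and 5.68 scaled FPKM in Control mice, and Cdk4 at 15.7, against 15.4, 24.2 and 17.7 scaled FPKM.

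Among genes without an opposite-strand gene within 5000 bases, a choice made after the data were seen, 13 of the 33 remained and 6 could be tested. Scaled on such genes alone, Mcm6 had a log2 fold change of -1.13 (SE 0.39), Ccnb2 -0.89 (SE 0.39) and Rrm1 -0.34 (SE 0.27), while Mcm5 had -0.01, Tyms 0.17 and E2f1 0.31. None passed, the smallest adjusted p being 0.487, beside 0% of 3654 genes. With the mouse number as a replicate block 0 of the 6 were called. These 13 genes held 65, 22 and 741 fragments in I-PpoI mice 1, 2 and 3, against 1539, 1851 and 1843 in Control mice. In I-PpoI mice 1 and 2 Mcm6 held 7 and 1 fragments, Ccnb2 0 and 0 and Rrm1 16 and 5. Mcm5 held 22 and 2 there, Tyms 7 and 3 and E2f1 10 and 4, so the fold changes lie near the limit of counting. Choosing these genes does not remove the strand difference of I-PpoI mice 1 and 2. Its part in these fold changes was not tested.

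**Figure D3:**
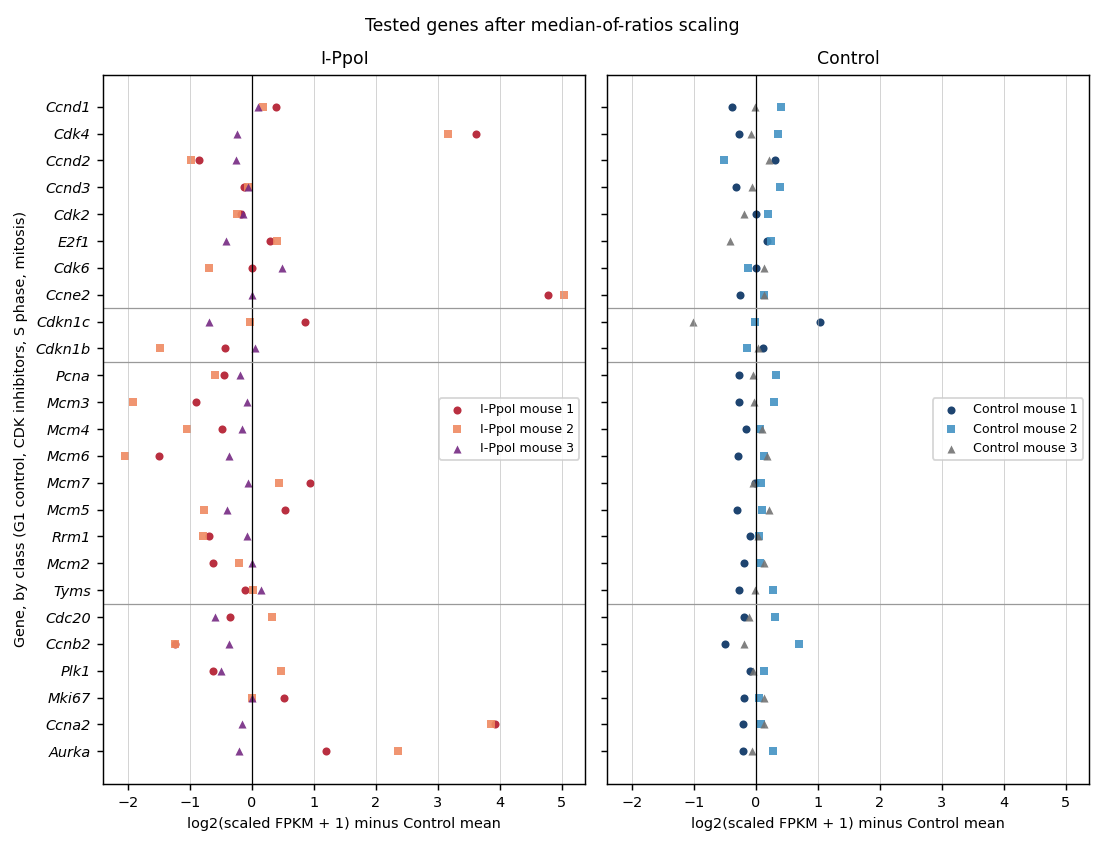
log2(scaled FPKM + 1) minus the Control mean for the 25 tested genes in the I-PpoI libraries (left) and Control libraries (right), by class; each point is 1 library. I-PpoI mouse 3 stays near the Control points, while I-PpoI mice 1 and 2 lie far right for Cdk4, Ccne2 and Ccna2 and left for Mcm3 and Mcm6.

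Control mice also differed among themselves. Control mouse 2 was the highest Control library in 21 of the 33 genes, in 14 of the 25 tested, beside 37.1% of all genes, and in 10 of the 12 mitotic genes, beside 31.1% of 8508 genes in the same range of Control means. Control mouse 1 was the highest in 6 of the 33, counting Ccne1, which was not tested, beside 48.6% of all genes tested. Ccnb2, at 3.71 FPKM in Control mouse 2 against 0.970 and 1.35 FPKM in Control mice 1 and 3, and Cdk1, at 0.965 against 0.226 and 0.598 FPKM, show this. The sums of the endothelial, erythroid, and distal nephron and podocyte markers were also highest among Controls in mouse 2, at 3412, 992 and 265 FPKM, against 3240, 659 and 249.9 FPKM in Control mouse 1 and 3091, 243 and 256 FPKM in Control mouse 3. Those of lymphocyte, macrophage and proximal tubule markers were highest in Control mouse 3, at 61.3, 215 and 724 FPKM. The fibroblast and mural sum was highest in Control mouse 1, at 938 FPKM. Endothelial genes went both ways: in Control mice 1, 2 and 3 Pecam1 had 256, 197 and 237 FPKM and Emcn 243, 390 and 259 FPKM. In I-PpoI mice the 6 erythroid markers summed to 102.6 to 213 FPKM. Of these 6, Alas2 was highest in Control mouse 1 and the other genes in Control mouse 2. The part of these markers in the mitotic levels was not tested.

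The other genes of the pathway were read from a list of 139. Of these 83 were tested and 0 passed. At an unadjusted p under 0.05, 27 were lower and 1 higher in I-PpoI, a share near the 32.2% lower and 4.23% higher of all genes tested. Their median log2 fold change was -0.60 as deposited and -0.01 scaled. Named are the 3 with the highest Control mean in each class. In G1 control, E2f4, a repressor E2F of resting cells, had 20.3, 6.33 and 11.6 FPKM in I-PpoI and 24.1, 23.5 and 21.1 FPKM in Control. Cdkn1a, the p21 inhibitor induced by p53, had 10.003, 4.70 and 14.6 FPKM in I-PpoI, against 16.4, 23.0 and 26.7 FPKM in Control. Its log2 fold change was -1.19 as deposited and -0.41 scaled, and that of Rbbp4, a retinoblastoma-binding chromatin protein, -1.58 and -0.82. In S phase, Gins4, a subunit of the replicative helicase, had -1.22 as deposited and -0.49 scaled, Rpa1, which binds single-stranded DNA, -1.49 and -0.81, and Dnmt1, the maintenance DNA methyltransferase, -0.44 and 0.30. In mitosis, Pttg1 (securin) had -1.62 as deposited and -0.85 scaled, Bub3, a checkpoint protein, -0.97 and -0.24, and Ube2s, a ubiquitin-conjugating enzyme, 0.57 and 1.36. The sign of Dnmt1 turned with scaling.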

How the data were processed

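Total RNA of CD31-selected kidney endothelial cells was sequenced as paired ends of 100 cycles, per the labels' protocols. The authors deposited 1 table of FPKM per gene and library; DESeq2 1.28.13 and the builds mm10 and GRCm38 are named in the submitters' processing notes, while the aligner, the counting tool and its use of strand were not named there.  FPKM times exon length (GENCODE M21) came out whole (tolerance 0.05) in 99.2 to 99.4% of values below 1000 fragments, so depth could be recovered.

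Groups were tested with limma 3.58.1 in R 4.3.3 on log2(FPKM + 1), keeping genes that averaged 1 FPKM or more, with Benjamini-Hochberg adjustment over all genes tested and 0.05 as the threshold. This scale understates changes of low genes. The fit was tested on simulated libraries drawn from the Control profile at the deposited totals. It recovered 16% of 2-fold and 91% of 4-fold changes and called 13 unchanged genes, so most 2-fold changes were missed in the simulation. Its spread was fixed for all genes, and changes were placed only in genes with enough expected fragments in the smallest library. In I-PpoI mouse 2, 24 of the 33 genes had fewer than 10 fragments, so these rates need not hold for them. The simulated libraries held no strand difference, so that difference was not covered. Alternatives were other pseudocounts, filters and scalings, limma-voom on recovered fragments, array weights, a replicate block and left-out libraries. Median-of-ratios scaling divided each library by its median ratio to the gene-wise geometric mean. Replicates are separate mice, per the labels. Members and lists were chosen with earlier results of these data known. All 33 genes are accounted for, and of the other cell cycle genes the 3 of highest Control mean in each class are named, with any gene past the threshold. Of the marker lists, 1 gene is not reported here.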

Additional observations from a re-analysis of the deposited data

How the results depend on the processing

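Calls depended on how libraries were scaled and weighted, and the cause was not tested. Cell cycle genes called numbered 0 of 25 as reported and 6 of 25, all lower in I-PpoI, with a common total per library. With array weights they numbered 10 of 25, 7 lower and 3 higher. Among genes without an opposite-strand neighbour as deposited they numbered 3 of 6, all lower. Other cell cycle genes called numbered 21 of 83, 35 of 83 and 6 of 23 in the same order. The genes tested in all numbered 14962, 14962 and 3654, and 3347, 3962 and 1436 of them were called lower. All genes called numbered 3961 with a common total, 6747 with array weights, 19 without I-PpoI mice 1 and 2, 49 without them and scaled by median-of-ratios, 1448 among genes without an opposite-strand neighbour as deposited and 46 among these when scaled without I-PpoI mice 1 and 2. Leaving out I-PpoI replicate 3 gave 15 of 26 cell cycle genes called and 48 of 85 others, beside 8470 of 15110 genes. In that fit the I-PpoI group is mice 1 and 2 only, the libraries that differ in strand. Leaving out any other single library gave 0 called. limma-voom called 0 of 14945 genes, with 528 at an unadjusted p under 0.05 and 0 of the cell cycle genes among them.

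The median log2 fold change of the cell cycle genes was -0.79 as reported, -1.06 at a pseudocount of 0.1, -0.19 with median-of-ratios scaling, with limma-voom and with the replicate block and scaling, -1.86 with a common total, -0.14 scaled without I-PpoI mice 1 and 2, -0.17 scaled among genes without an opposite-strand neighbour and -0.38 among these without I-PpoI mice 1 and 2, and -0.85 to -0.68 with each library left out. That of the other cell cycle genes was -0.60 as reported, -0.01 with scaling and with the block and scaling, -1.61 with a common total, 0.01 with limma-voom, -0.02 scaled without I-PpoI mice 1 and 2, -0.06 and 0.06 in the same pair of settings without opposite-strand neighbours, and -0.71 to -0.49 with each library left out. A common total moved the median of all genes to -1.71.

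Signs turned for some genes. With scaling, with or without the block, Mki67 came to 0.18, Mcm7 0.43, Ccnd1 0.22, Tyms 0.01, E2f1 0.09 and Cdkn1c 0.04. With limma-voom Mki67 came to 0.14, Mcm7 0.19, Ccnd1 0.22, Cdk6 0.57 and Tyms 0.29. Without I-PpoI mice 1 and 2 Cdk4 came to -0.91 and Cdk6 to 0.07, and with scaling too Mki67 to 0.01, Mcm2 0.02, Ccnd1 0.12, Cdk4 -0.22, Cdk6 0.53, Tyms 0.17 and Cdkn1b 0.07. Aurka came to -0.02 with a common total. Among genes without an opposite-strand neighbour and scaled, Tyms came to 0.17 and E2f1 to 0.31, and Tyms to 0.17 without I-PpoI mice 1 and 2. Whether the mouse numbers pair the libraries depended on the scale: the deviations of same-numbered mice 1, 2 and 3 correlated at 0.089, 0.0631 and -0.0204 as deposited, 0.142, 0.0633 and 0.0379 scaled, and 0.264, 0.196 and 0.186 scaled among genes without an opposite-strand neighbour. The replicate block called 0 genes on the first pair of scales. On the last scale, in a fit added after seeing the data, it called 1 of 3654 genes and 0 of the 6 cell cycle genes tested. The medians there were -0.17 for the cell cycle genes and -0.06 for the others, with Tyms at 0.17 and E2f1 at 0.31.

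Depth limits the low genes: in I-PpoI mouse 2, 24 of the 33 had fewer than 10 fragments, which limits the precision of their values in that library.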
